A study of Zea mays with 12 samples.

Results

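The comparison set leaves of the maize mutant zmcryq against leaves of the inbred line B73 after 1 h of blue light. It used the 6 of the 12 libraries of the series that came from seedlings exposed to blue light, 3 of zmcryq and 3 of B73, chosen by their titles. All seedlings were 7 days old, had been raised under long-day white light and had spent 48 h in darkness before the blue light. The labels call B73 the wild type and zmcryq a mutant. They give neither the mutated genes nor the alleles, and they say neither in which genetic background the mutations were made nor from how many lines the seedlings came. The other 6 libraries, 3 of zmcryq and 3 of B73 kept in the dark, entered the same fit and served to show which genotype differences were present without blue light. Whether the libraries of a group came from different plants is not stated, so the p-values refer to the spread among these libraries, part or all of which may be technical.

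Cryptochromes are flavin-binding photoreceptors that change shape on absorbing blue light. In Arabidopsis the activated receptors bind the COP1 and SPA proteins, which otherwise mark light-response transcription factors such as HY5 for degradation, and they also bind some transcription factors directly. In green seedlings they are known for restraining stem growth and for promoting pigment synthesis and chloroplast gene expression in light. The name zmcryq refers to the cryptochromes of maize (Zea mays), and the comparison asks which transcripts differ in the mutant once blue light is present.

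The deposited table lists 44303 gene IDs of the form Zm00001eb followed by digits, with no gene names. Of these IDs, 0 were found among the 49888 entries of the RefSeq maize gene table, so genes are given by ID and roles, pathways and leaf markers were not analysed here. For the same reason the cryptochrome genes themselves were not checked in the mutant. The values are taken to be FPKM, a measure of fragments relative to transcript length and library size, in which levels of different genes are compared per length. Tests covered the 21472 genes that reached 1 FPKM in 3 or more of the 12 libraries, after scaling by median ratios.

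The libraries differed in how much of their FPKM lay in a small set of neighbouring IDs. In 9 blocks of 100 consecutive IDs, from Zm00001eb262010 to Zm00001eb264000 and from Zm00001eb435010 to Zm00001eb442000, the median residual SD of the tested genes was 0.6 or more on the log2 scale. These blocks were picked after their values were seen. They held 26.5%, 43.1% and 13.3% of the FPKM of zmcryq blue replicates 1, 2 and 3, and 10.3%, 53.0% and 11.4% of that of B73 blue replicates 1, 2 and 3. The median-ratio factors ran the other way, at 1.26, 0.868 and 1.64 in zmcryq blue and 1.45, 0.567 and 1.49 in B73 blue. Before scaling, the FPKM of all other IDs ranged 1.92-fold among the zmcryq blue libraries and 2.61-fold among the B73 blue libraries. Divided by the factor, it ranged 1.01-fold and 1.05-fold. In the dark groups the ranges were 2.05-fold before and 1.04-fold after in zmcryq. In B73 dark they were 1.34-fold before and 1.17-fold after, the widest range left in any group. The factor was computed mostly on these other IDs, so their closeness is no separate test of the scaling. What the IDs in these blocks encode is not annotated, and the source of their varying share was not tested.

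**Figure D1:**
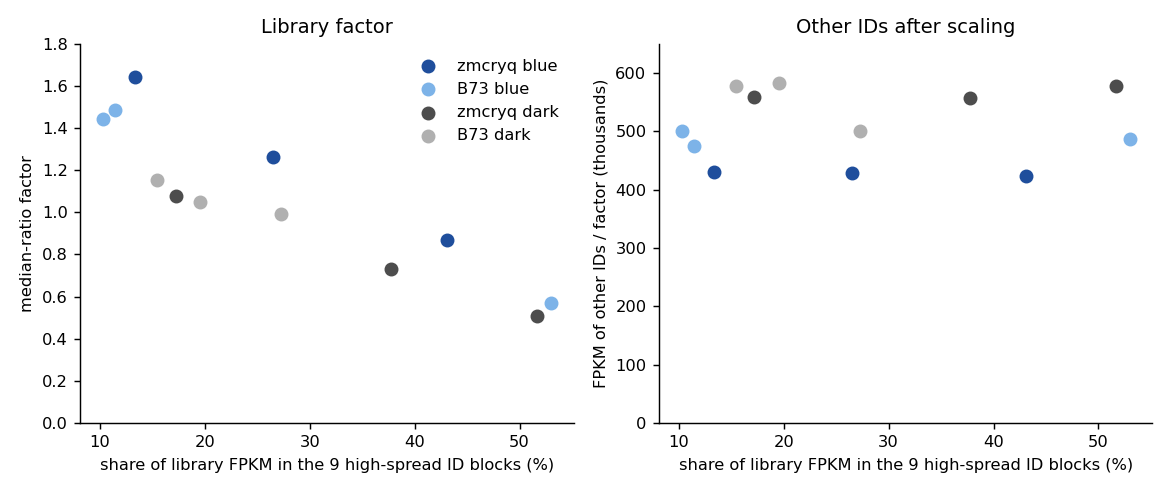
Each point is a library. The left panel plots the median-ratio factor, and the right panel the FPKM of all other IDs divided by that factor, against the share of the library's FPKM in the 9 blocks of high spread. B73 blue replicate 2 stands far to the right of the other B73 blue libraries in share (53.0%) and low in factor (0.567), but beside them in the right panel, where zmcryq blue lies below B73 blue.

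In these blocks, picked for their large spread between libraries of a group, calls were few. The larger SD below follows from that selection, and the share of calls is not independent of it. Of the 314 tested in the blocks, whose median residual SD was 1.08, 62 were called (19.7%). Of the other 21158, with a median residual SD of 0.18, 11741 were called (55.5%). Among the 100 most abundant genes of the blue libraries after scaling, 60 lay in the blocks and 0 of these 60 were called. The other 40 included 11 higher and 19 lower in zmcryq.

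Under blue light the leaf transcript profiles of the genotypes differed widely. At a limma adjusted p under 0.05, 5773 genes were higher in zmcryq than in B73 (26.9% of the 21472 tested) and 6030 were lower (28.1%), together 55%. In whole leaves, fewer cells that express a gene and less RNA per cell cannot be told apart. Most of these differences were small. The median called difference was 0.75 on the log2 scale for genes higher in zmcryq and 0.90 for genes lower, 1.68-fold and 1.87-fold, beside a median standard error of 0.15. At 2-fold or more, 1910 genes were higher (8.9% of those tested) and 2715 lower (12.6%), together 21.5%.

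The balance of all calls depended on the scaling, which by construction sets the median difference near 0. With libraries scaled instead by the total of all IDs outside the 9 blocks, a setting chosen after seeing the data, the median of all genes was 0.18 in place of 0.02 on the log2 scale, and 7572 genes were called higher and 4720 lower (61.6% higher, against 48.9%). Separation of the libraries was wider than the calls. After scaling, the 3 zmcryq blue libraries lay all above or all below the 3 B73 blue libraries for 14046 genes, 65.4% of those tested, and 11653 of the 11803 called genes were among them. Leaving out B73 blue replicate 2, the library with the highest share in the blocks, gave 5217 genes higher and 5755 lower.

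Called genes with a large difference were more often lower than higher in zmcryq. At 4-fold or more, 486 genes were higher and 968 lower. At 8-fold or more the counts were 172 and 390, at 16-fold or more 69 and 147, and at 32-fold or more 18 and 50. In the dark, 193 genes were higher and 188 lower at 8-fold or more, and 46 were higher and 20 lower at 32-fold or more. Without scaling the dark counts at 8-fold or more were 145 higher and 237 lower, while the other scalings kept them near balance. At 8-fold or more under blue light, genes lower in zmcryq outnumbered those higher under every scaling tried, with 36.5% of the calls higher at most, without scaling, and 40.9% with a pseudocount of 0.1. The counts themselves depended on the pseudocount. With 0.1 in place of 1, 598 genes were higher and 866 lower at 8-fold or more under blue light, and 550 and 583 in the dark. With a pseudocount of 5 they were 24 and 132 under blue light and 52 and 41 in the dark.

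**Figure D2:**
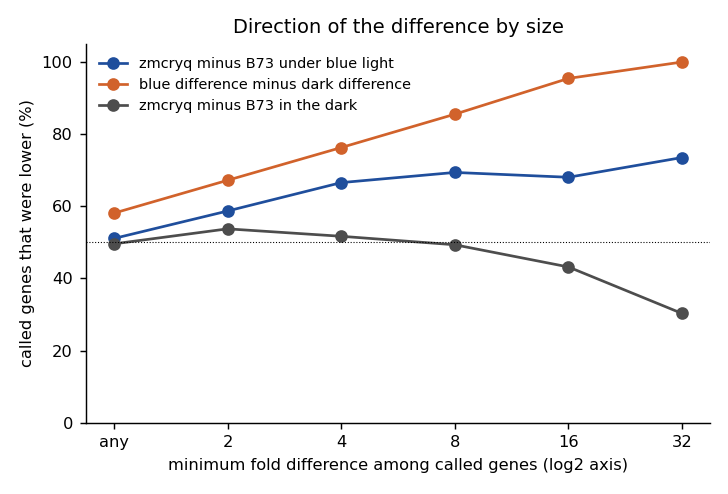
Share of called genes that were lower, on the y axis in percent, for called genes at or above each minimum fold difference on the x axis. The line for zmcryq minus B73 under blue light stands at 51.1% for all calls and at 73.5% for those of 32-fold or more (18 higher and 50 lower). There the line for the difference between blue and dark reaches 100% (0 higher and 14 lower). The line for the dark drops to 30.3% (46 higher and 20 lower). These end points rest on few genes, and no other setting was counted at 32-fold.

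Abundant genes leaned to lower in zmcryq where the difference was large. Among the 4295 tested genes with the highest mean level over all libraries, from 25.5 FPKM upwards after scaling, 296 were higher at 2-fold or more under blue light and 694 were lower. That mean includes the blue libraries compared, so a gene high in B73 blue alone could enter the abundant group through it. The grouping is thus not independent of the difference, and how much of the lean this accounts for was not tested. Among the 4294 with the lowest level, up to 2.18 FPKM, 457 were higher at 2-fold or more and 461 lower. In the abundant group the lean held under each scaling tried, and was smallest with quantile normalization, at 485 higher and 580 lower. The low group had 417 higher and 490 lower under that scaling, so the contrast between abundant and low genes was not seen there, against 598 and 463 without scaling and 603 and 430 with the total outside the 9 blocks. Over calls of any size it did not hold: the abundant group had 1000 genes higher and 1453 lower with median ratios, but 1601 and 1105 with quantile normalization and 1468 and 1143 with the total outside the 9 blocks. At 2-fold or more, 1910 genes were higher and 2715 lower over all tested genes, those in the 9 blocks included. Of the FPKM outside the blocks, the higher genes made up 19.7%, 20.4% and 19.7% in the zmcryq blue libraries. In the B73 blue libraries they made up 6.48%, 6.11% and 5.50%. The lower genes made up 8.08%, 7.86% and 8.57% in zmcryq blue and 30.5%, 30.8% and 32.1% in B73 blue. These genes were picked on the same libraries, so the shares describe how much of the transcript pool they held and are no further evidence of their direction.

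Transcripts that were abundant under blue light in either genotype, differed there and were not called in the dark are shown by the largest differences of each direction. A mean of 100 FPKM or more over the 6 blue libraries was required, which 35 called genes higher in zmcryq and 74 lower met. A gene could pass through a single genotype, as Zm00001eb235510 and Zm00001eb258360 did through B73 blue. How many of all tested genes reached that mean is not given, so these counts describe the selection only. After scaling, Zm00001eb235510 stood at 1.09, 0.553 and 1.08 FPKM in zmcryq blue replicates 1 to 3 and at 214, 205 and 190.1 FPKM in B73 blue replicates 1 to 3. All zmcryq blue libraries were thus far nearer to the dark level than to the B73 blue level. The dark level was 0.138 to 0.279 FPKM in zmcryq and 0.104 to 0.63 FPKM in B73. The difference under blue light was -6.75 ± 0.16 (SE) on the log2(FPKM + 1) scale (limma adjusted p 3.6e-11), and in the dark it was -0.13 ± 0.16 (limma adjusted p 0.52).

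Zm00001eb258360 had 2.69, 3.19 and 4.21 scaled FPKM in zmcryq blue and 221, 252 and 304 in B73 blue. The groups were 77.0-fold apart in mean level. In the dark, zmcryq libraries had 0 to 0.398 FPKM and B73 libraries 0.141 to 0.19 FPKM, so the groups overlapped. The log2 difference was -5.90 ± 0.17 (SE) under blue light (limma adjusted p 1.6e-10) and -0.02 ± 0.17 in the dark (limma adjusted p 0.92).

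In the other direction, Zm00001eb209570 had 691, 721 and 707 scaled FPKM in zmcryq blue against 90.6, 122 and 128 in B73 blue, a 6.21-fold higher mean. Its dark libraries ran from 147 to 196 FPKM in zmcryq and from 152 to 179.6 FPKM in B73, overlapping each other and lying between the groups under blue light. On the log2 scale it differed by 2.64 ± 0.15 (SE) under blue light (limma adjusted p 5.3e-08) and 0.11 ± 0.15 in the dark (limma adjusted p 0.58). Zm00001eb277260 had 693, 683 and 689 scaled FPKM in zmcryq blue against 126, 119 and 117 in B73 blue. Its dark levels were 507 to 583 FPKM in zmcryq and 357 to 645 FPKM in B73, all above the B73 blue level and below that of zmcryq blue. Under blue light the log2 difference was 2.50 ± 0.19 (SE) (limma adjusted p 5e-07).

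In the single fit after scaling, most genes that differed under blue light also differed in the dark. The dark contrast uses other libraries than the blue one. In the dark, 49.7% of tested genes were called, 5384 higher in zmcryq (25.1%) and 5298 lower (24.7%), or 971 and 3106 without scaling. Of the 5773 genes higher in zmcryq under blue light, 3555 were also higher in the dark, which is 61.6% of the blue list and 66.0% of the dark list. For 2013 of them no dark difference was called (34.9%), and 205 were lower in the dark (3.55%). Of the 6030 genes lower under blue light, 3608 were also lower in the dark, 59.8% of the blue list and 68.1% of the dark list, with 2119 not called (35.1%) and 303 higher (5.02%). Without scaling, 796 of 2492 genes higher under blue light were also higher in the dark, a minority, and 1439 of 2372 genes lower were also lower. Among genes at 2-fold or more under blue light the shares with the same direction in the dark were 77.9% of those higher and 70.2% of those lower. Across the 21472 genes, which are not independent replicates, the differences under blue light and in the dark correlated at a Pearson r of 0.72 and a Spearman rho of 0.66. All 12 libraries entered the same scaling and the same estimate of the spread, so the blue and dark calls are not independent. With the 6 libraries of each light condition scaled and fitted alone, the overlap was smaller. Of 6081 genes then higher under blue light, 3042 were also higher in the dark, and of 6330 lower, 3349 were also lower.

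**Figure D3:**
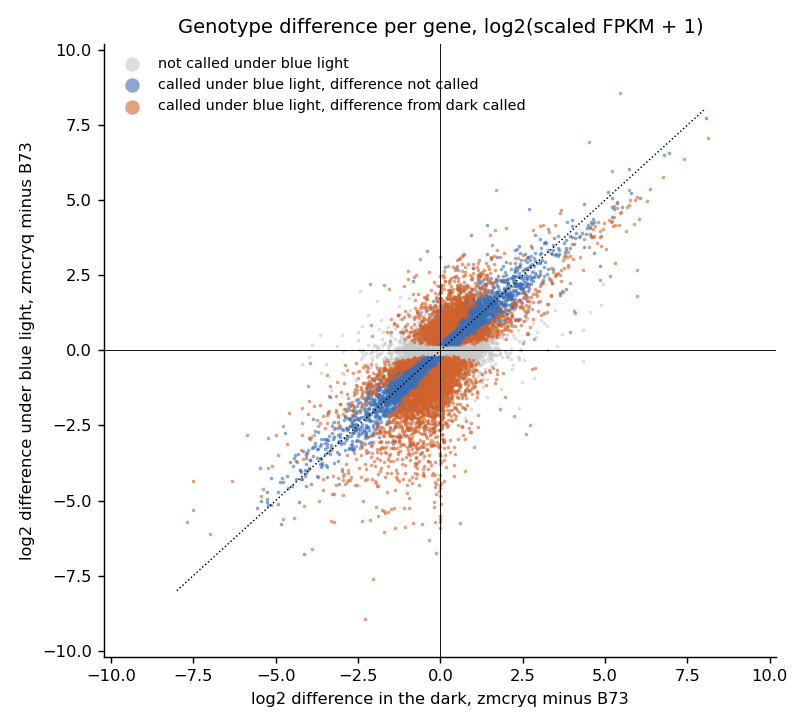
Each point is a tested gene, with the log2 difference zmcryq minus B73 in the dark on the x axis and under blue light on the y axis, and a dotted line where they are equal. Blue points, called under blue light with no called difference from the dark, follow the dotted line, while orange points, whose difference under blue light departed from that in the dark, reach furthest below it. The colours were set by the test of this same departure, so the nearness of blue points to the line follows from the colouring.

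The genes with the largest difference in both light conditions, taken from 3119 higher and 3258 lower in both and above 0 in every library, were far lower in one genotype under either light. Zm00001eb086250 had 39.5, 46.8 and 47.3 scaled FPKM in zmcryq blue and 0.533, 0.194 and 0.316 in B73 blue. In the dark it had 39.8 to 46.7 FPKM in zmcryq and 0.086 to 0.225 FPKM in B73, so its level followed the genotype under either light. The log2 difference was 5.08 ± 0.12 (SE) under blue light and 5.22 ± 0.12 in the dark (limma adjusted p 3.8e-11 and 3e-11), and the difference between these was not called (limma adjusted p 0.6).

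Zm00001eb076480 had 39.8, 41.4 and 39.2 scaled FPKM in zmcryq blue and 0.311, 0.828 and 0.545 in B73 blue. In the dark it had 58.6 to 65.0 FPKM in zmcryq and 0.497 to 0.544 FPKM in B73. The log2 difference was 4.73 ± 0.11 (SE) under blue light and 5.37 ± 0.11 in the dark, and the difference between these was -0.64 (limma adjusted p 0.013).

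Zm00001eb207670 was lower in zmcryq in both conditions, with 4.13, 3.24 and 2.74 scaled FPKM in zmcryq blue and 339.6, 316 and 244 in B73 blue. In the dark it stood at 0.374 to 0.986 FPKM in zmcryq and 196 to 228 FPKM in B73. Its log2 difference was -6.10 ± 0.17 (SE) under blue light (limma adjusted p 1.2e-10) and -7.00 ± 0.17 in the dark (limma adjusted p 3.8e-11). Zm00001eb270140 had 0.0475, 0.127 and 0.0852 scaled FPKM in zmcryq blue and 65.7, 60.9 and 45.2 in B73 blue. Its dark libraries were at 0.256 to 0.329 FPKM in zmcryq and at 225 to 313 FPKM in B73, above the B73 blue level. Under blue light its log2 difference was -5.73 ± 0.14 (SE) (limma adjusted p 6.7e-11).

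For a part of the genes the genotype difference under blue light departed from that in the dark, tested as the difference between these differences. At a limma adjusted p under 0.05 it was called for 25.8% of tested genes, 2322 higher (10.8%) and 3221 lower (15%). Without scaling these counts were 605 and 412, with quantile normalization 3207 and 2856, and with scaling by the total outside the 9 blocks 4003 and 2200, so the balance of directions depended on the scaling. At 8-fold or more it leaned to lower in each: 23 higher and 136 lower, against 39 and 98 without scaling, 26 and 136 with quantile normalization and 25 and 119 with the total outside the blocks. Of the 6030 genes lower in zmcryq under blue light, 2334 had a called difference between blue and dark in the same direction (38.7%) and 348 in the opposite one. Of the 5773 genes higher, 1385 (24.0%) and 341 did. These lists and the test share the blue libraries, so the shares are descriptions.

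The levels of the classes show where the genotypes stood under each light. For the 1212 genes lower in zmcryq under blue light, not called in the dark and with a called difference, the median gene had 5.28 scaled FPKM in zmcryq blue and 14.1 in B73 blue, beside 6.08 in zmcryq dark and 6.30 in B73 dark. In these genes the B73 blue group stood apart from the other groups. A further 819 genes were lower in both conditions and more so under blue light, with median levels of 6.16 FPKM in zmcryq blue, 31.0 in B73 blue, 5.87 in zmcryq dark and 13.0 in B73 dark. For the 801 genes higher in zmcryq under blue light, not called in the dark and with a called difference, the medians were 8.51 FPKM in zmcryq blue and 4.06 in B73 blue, beside 5.16 in zmcryq dark and 5.23 in B73 dark. Here the groups under blue light lay on opposite sides of the dark ones. The classes were formed from the same values, so these medians carry no test.

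In some genes the direction itself differed between the light conditions: 205 were higher in zmcryq under blue light and lower in the dark, and 303 the reverse. Zm00001eb055330 had 4.90, 3.46 and 4.16 scaled FPKM in zmcryq blue and 242, 299 and 279 in B73 blue. In the dark its order was turned, with 0.958 to 1.54 FPKM in zmcryq and 0.439 to 0.574 FPKM in B73, all of them low. The log2 difference was -5.73 ± 0.13 (SE) under blue light and 0.59 ± 0.13 in the dark (limma adjusted p 3.3e-11 and 0.0031).

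Zm00001eb067620 had 50.6, 33.9 and 41.6 scaled FPKM in zmcryq blue and 7.41, 7.35 and 3.44 in B73 blue, without overlap. In the dark it had 3.17 to 4.76 FPKM in zmcryq and 5.24 to 11.8 FPKM in B73. Its log2 difference was 2.65 ± 0.30 (SE) under blue light and -0.98 ± 0.30 in the dark (limma adjusted p 2.4e-05 and 0.02).

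The remaining pair selected by the rule rested on low or scattered values. Zm00001eb072670 was listed at 2.54, 2.32 and 12.82 deposited FPKM in zmcryq blue and at 0 in all 3 B73 blue libraries, and at 0 in all 3 zmcryq dark libraries and 4.92, 3.03 and 3.22 FPKM in B73 dark. Zm00001eb441710, which lies in a block of high spread, had 0.0237, 3.34 and 1.13 scaled FPKM in zmcryq blue and 5.44, 38.5 and 11.2 in B73 blue. In the dark it had 9.26 to 19.4 FPKM in zmcryq and 0.161 to 4.81 FPKM in B73. Its difference between blue and dark was -5.39 ± 1.14 (SE) on the log2 scale (limma adjusted p 0.0073).

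**Figure D4:**
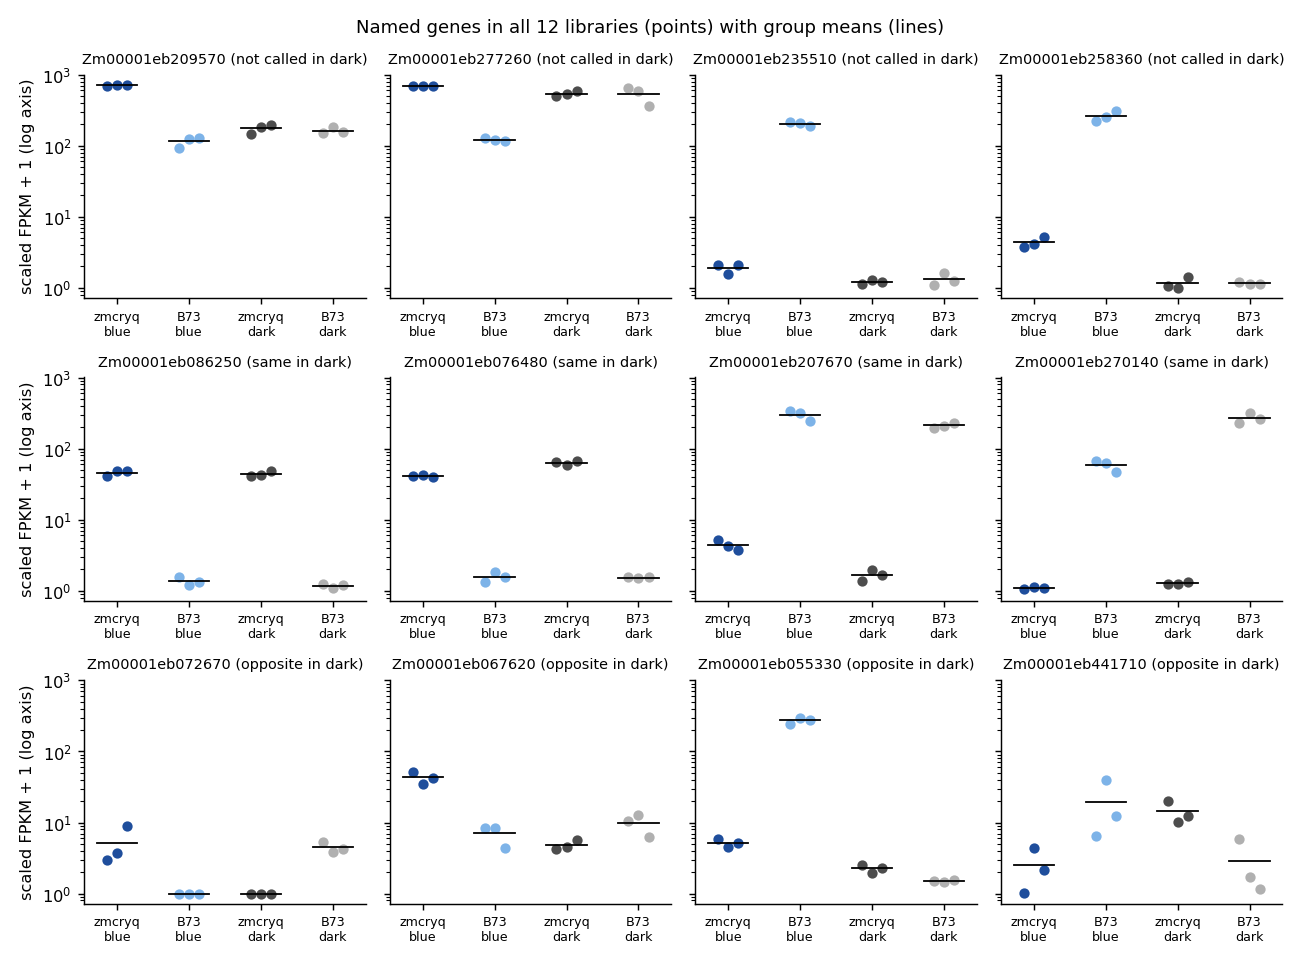
Scaled FPKM + 1 on a log axis in each of the 12 libraries (points) and the group means (lines) for the named genes. The top row holds genes called under blue light and not in the dark, the middle row genes with the same direction in both and the bottom row genes with opposite directions. Zm00001eb235510, Zm00001eb258360 and Zm00001eb055330 are high in the B73 blue libraries alone of the 4 groups.

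Some transcripts were listed in a single genotype under blue light. By deposited values, 192 genes were at 1 FPKM or more in all 3 zmcryq blue libraries and at 0 in all 3 B73 blue libraries, 1.04% of the 18432 genes at 1 FPKM or more in all zmcryq blue libraries. The reverse held for 115 genes, 0.67% of the 17169 at 1 FPKM or more in all B73 blue libraries. Their levels were moderate: mean levels ran from 1.07 to 489 FPKM with a median of 5.94 in zmcryq blue for the first set, and from 1.32 to 114 FPKM with a median of 5.81 in B73 blue for the second. A mean of 10 FPKM or more was reached by 69 and 34 genes.

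The same pattern was present in the dark for many of them. Of the 192 genes, 112 were also at 1 FPKM or more in all 3 zmcryq dark libraries and at 0 in all 3 B73 dark libraries (58.3%), and of the 115 genes, 60 showed their pattern in the dark (52.2%). Few turned up in the other genotype without blue light: 7 of the 192 reached 1 FPKM in any B73 dark library and 4 of the 115 in any zmcryq dark library. Conversely, 4 of the 192 and 12 of the 115 were at 0 in all 3 dark libraries of their own genotype. Mapped totals are not given, so no limit can be put on a value of 0. The count of 115 rose to 185 without B73 blue replicate 2, the blue library with the lowest factor, and the count of 192 was 216 to 235 when a blue library was left out. At 0.1 FPKM or less in place of 0, the counts were 254 and 168.

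Called genes were spread over the whole range of gene IDs, which in the B73 annotation are numbered along the chromosomes. In blocks of 500 consecutive IDs, leaving out the 3 that overlap the stretches of high spread, 41.5% to 65.2% of the tested genes were called, with a median of 55.3% over 86 blocks. Genes higher in zmcryq made up 19.0% to 37.2% of a block and genes lower 15.5% to 41.3%. Neighbours shared their direction somewhat more often than the average gene. After a gene higher in zmcryq, the next tested ID was also higher in 31.3% of cases, against 26.9% over all tested genes, and after a gene lower it was also lower in 34.4%, against 28.1%. No test was made of this, and neighbouring or overlapping genes can share reads.

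Genes listed in a single genotype lay in most blocks. Of all 89 blocks, 79 held a gene of the zmcryq set and 54 a gene of the B73 set, with at most 6 and 5 in a block, and 5 blocks held neither. The longest run of IDs with neither, 1755 IDs from Zm00001eb075440 to Zm00001eb092980, had 748 tested genes, of which 398 were called under blue light (53.2%, against 55% of all tested genes).

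**Figure D5:**
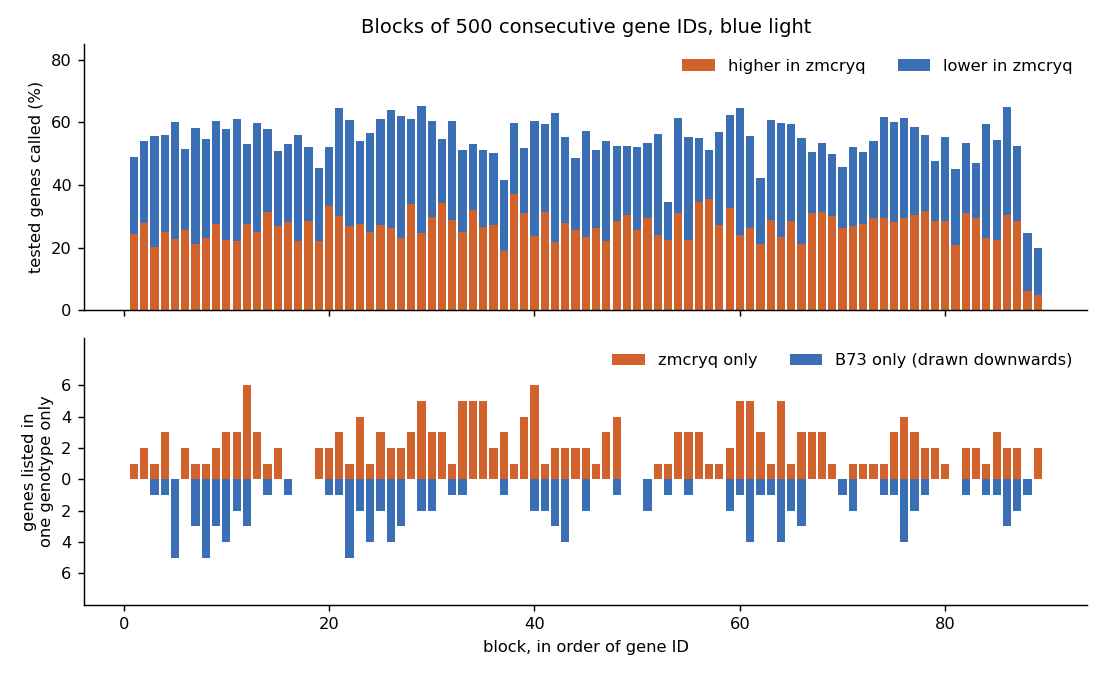
Blocks of 500 consecutive gene IDs in ID order on the x axis. The upper panel gives the share of tested genes called higher or lower in zmcryq under blue light, which is lowest in the blocks that overlap the stretches of high spread, and the lower panel the number of genes listed in zmcryq only (upwards, at most 6) or in B73 only (downwards, at most 5).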

How the data were processed

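RNA from leaves was measured in 12 libraries, 3 in each of 4 groups, made with Illumina's TruSeq RNA kit, per the labels. The authors deposited a table with a value per library, read here as FPKM. No header or label states that unit: the values have decimals and differ in total, and Cufflinks is named in the submitters' processing notes. The same notes list DESeq 1.18.0, Bowtie2, TopHat, HISAT2 2.2.1.0 and Trimmomatic 0.36 without saying what each did. Genome build, strand use and the handling of shared fragments are not given in the sources, so overlapping genes and near-identical copies are uncertain. Totals per library ran from 588717 to 814802 FPKM; mapped totals are not given, so no counting error can be stated. The authors' columns of group means were not used.

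Each library was divided by its median ratio to the geometric means of the 19555 tested genes that were above 0 throughout. Group means of log2(FPKM + 1) were compared in limma (version 3.58.1, R 4.3.3) in a single fit over 12 libraries with 8 residual degrees of freedom, using trended, robust moderation. Tests were 2-sided, with Benjamini-Hochberg adjustment over the 21472 genes tested and calls at an adjusted p under 0.05. Fold changes on the log2(FPKM + 1) scale understate the change of low genes. Among the alternatives, factors of the trimmed mean of M values (TMM) were computed on the FPKM values.

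Named genes are, for each comparison, the pair with the highest and the pair with the lowest log2 difference. Under blue light these were genes not called in the dark, above 0 in every blue library and at a mean of 100 FPKM or more. For blue light and dark together they were genes called in the same direction in both, above 0 in every library and ranked by the smaller difference. For the difference between blue and dark they were genes called in opposite directions. The comparison, rules and gene groups were chosen with earlier results of these data known. Of 18 pairs of libraries with the same replicate number, 4 deviated together at a correlation over 0.1, so the numbers were not taken to pair the libraries. The pairs of zmcryq blue with B73 blue correlated at 0.05 for replicate 1, 0.32 for replicate 2 and 0.18 for replicate 3. The value for replicate 2 was the highest of the 18. A fit with the replicate block is given below.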

Additional observations from a re-analysis of the deposited data

Results flagged for a closer look

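The genotype difference under blue light departed from that in the dark by its own limma test in 2322 genes in the higher and 3221 in the lower direction. Among the named genes, the difference between these differences, zmcryq minus B73 under blue light less zmcryq minus B73 in the dark, was picked out in the following. It was 2.53 for Zm00001eb209570 and 2.44 for Zm00001eb277260, and -6.62 for Zm00001eb235510 and -5.88 for Zm00001eb258360, all on the log2(FPKM + 1) scale and none called in the dark. For genes called in the same direction in both conditions it was -0.64 for Zm00001eb076480, 0.90 for Zm00001eb207670 and 1.97 for Zm00001eb270140. For genes called in opposite directions it was 4.35 for Zm00001eb072670, 3.63 for Zm00001eb067620, -6.33 for Zm00001eb055330 and -5.39 for Zm00001eb441710. The genes of this last group were picked as the extremes of this same value, so its size follows from the selection. Zm00001eb072670 rests on low values and zeros, and Zm00001eb441710 lies in a block of high spread, with a standard error of 1.14.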

How the results depend on the processing

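The counts of genes higher and lower under blue light stayed within 1.5 times their value in all 12 repeats that left out a library (5075 to 6459 higher and 5397 to 6604 lower). Each named gene was followed only in the comparison it was picked for, which was the dark for genes called in the same direction in both. There the direction and call were kept in all 282 combinations of a named gene and a repeat that could be fitted. Their calls in the other comparisons, opposite directions included, were not followed over the repeats. The fit with the replicate block gave 5706 higher and 5991 lower under blue light, and it moved no count by over 1.5 times; 3 of the 12 libraries correlated best with their own number. Without scaling, 2492 genes were higher and 2372 lower under blue light, and 971 and 3106 in the dark (813 and 2854 at 2-fold or more). In the difference between blue and dark they were 605 and 412, all of them at 2-fold or more in both directions. In both light conditions 796 were then higher and 1439 lower. The median of all genes was 0.17 under blue light, -0.38 in the dark and 0.56 in the difference. With a pseudocount of 5 in place of 1, fewer genes reached 2-fold: 755 and 1582 under blue light, 700 and 878 in the dark, 307 and 872 in the difference. Array weights gave 4144 genes higher and 4779 lower in the difference, against 2322 and 3221 in the main fit. The repeat without the 9 blocks, scaled by the total of other IDs, was chosen after seeing the data. It gave 4003 genes higher and 2200 lower in the difference, with 1250 and 1218 at 2-fold or more. Leaving out together zmcryq blue replicate 2, B73 blue replicate 2 and zmcryq dark replicate 1 was also chosen after seeing the data. That repeat gave 1130 higher and 1910 lower in the difference, and 4426 and 4925 under blue light. Leaving out single blue libraries gave 124 to 185 genes listed in B73 only. Some repeats had fewer libraries or genes, and the cause of these changes was not tested. With unknown depth, low values and zeros limit what can be said of weakly expressed genes.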
